A study of Drosophila melanogaster with 2 samples.

Results

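Binding of the nuclear receptor Hr51 was examined at 10 genes that glial cells are known to use, namely repo, loco, Eaat1, moody, Gli, Gs2, drpr, htl, Nrx-IV and wrapper. They were picked by name for their roles in glia, with earlier results of these data known, from the 13945 protein-coding genes on the 6 chromosome arms that carry peaks. Whole Drosophila melanogaster embryos of 14 to 16 h, with males and females pooled, carried a transgene for Hr51 with green fluorescent protein (eGFP) at its C-terminus, and chromatin was immunoprecipitated with an antibody against GFP. The labels call the line stably expressing and give the insertion as targeting Hr51; whether untagged Hr51 was also made is not given in the sources used here. There were 2 samples in 1 group, biological replicates 1 and 3, so no contrast between conditions and no test was made. A summit, the position of highest signal in a peak, was counted for a gene when it lay in the gene body or within 1 kb of it (dm6). Peaks are called reproducible when they are in the list of 7229 made from both replicates. Weaker pooled peaks outside that list can still recur in both replicates. Signal is the authors' score for a peak; its scale is not given in the sources used here, and below it only orders the peaks of a given list.

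Glia are the support cells of the nervous system. In the fly embryo they wrap axons, seal the blood-brain barrier with septate junctions, clear the transmitter glutamate and engulf dying cells, and their fate in the lateral nervous system is set by the transcription factor Gcm, which turns on repo. Several of the 10 genes also serve other tissues: htl is needed in the mesoderm, and Gli and Nrx-IV in epithelia. Expression was not measured and the embryos were taken whole, so the cells in which a peak arose cannot be named, and binding in few cells and weak binding in many cannot be told apart.

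The DNA at the strongest summit of each gene with one, and at a further summit of loco, is shown here. It was read from the RefSeq genome of the same release, plus strand, 50 bp on each side of the summit. The other windows at loco are not printed. By the annotation no window reached an exon, since the nearest exon was 65 to 664 bp from the 8 summits. Base composition varied from window to window. Capitals mark matches to any of 6 short elements, which are spelled out after the sequences and were searched on both strands.
Gs2 (chrX:11423317-11423417): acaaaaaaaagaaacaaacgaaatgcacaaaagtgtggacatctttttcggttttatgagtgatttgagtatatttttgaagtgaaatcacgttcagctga
moody (chrX:2050225-2050325): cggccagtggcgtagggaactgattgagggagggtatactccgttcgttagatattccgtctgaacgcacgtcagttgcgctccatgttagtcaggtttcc
Gli (chr2L:15762029-15762129): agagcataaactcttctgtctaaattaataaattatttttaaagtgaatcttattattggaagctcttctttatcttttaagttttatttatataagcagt
htl (chr3R:18049709-18049809): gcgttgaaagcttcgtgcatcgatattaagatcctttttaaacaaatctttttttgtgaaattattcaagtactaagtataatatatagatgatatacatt
loco, summit 2 (chr3R:22628083-22628183): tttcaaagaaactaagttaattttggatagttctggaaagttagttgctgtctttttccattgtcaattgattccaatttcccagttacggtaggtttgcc
loco, summit 3 (chr3R:22627189-22627289): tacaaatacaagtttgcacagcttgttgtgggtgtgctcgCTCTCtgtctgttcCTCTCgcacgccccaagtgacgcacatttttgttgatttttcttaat

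Of these elements, only GAGAG, the core bound by the GAGA factor, was found in the 8 windows. It occurred at 2 places in 1 window, at loco, on the minus strand, so that it reads CTCTC above. Across all 7229 reproducible summits 8.30% of windows held it. AAGTCA, the core element of the NR2E receptors, was in 0 of the 8 windows and in 5.92% of all windows. The nuclear receptor element AGGTCA was in 0 of 8 windows and 2.14% of all, and the repeat CACACA in 0 of 8 and 5.56%. The E-box CAGGTG was in 0 of 8 and 1.70%, and the element TATCGATA, known from the DRE of housekeeping promoters, in 0 of 8 and 0.678%. The absence says only that these letters are not in these windows. The GC content of the 8 windows ran from 13.9% at loco, in a window not printed above, to 53.5% at moody. Within loco alone it ran from 13.9% to 44.6%. The median of the 8 was 33.2%, against a median of 29.7% for all reproducible summits and 42.1% for the 6 chromosome arms.

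Reproducible summits lay at 5 of the 10 genes. Gs2, moody, Gli and htl had 1 each and loco had 4, which makes 8 summits. The other 5 genes had none: repo, Eaat1, drpr, Nrx-IV and wrapper. Among all protein-coding genes 30.4% had a reproducible summit under the same rule. Taking the 7229 highest peaks of replicate 1 alone, or of replicate 3 alone, again gave 5 of 10, against 30.8% and 32.5% of all genes. The glial genes are long, with 7 of 10 in the longest of 5 equal length classes (6458 bp or more), where 59.8% of all genes had a summit and 4 of these 7 did. The other 3 were in the next length class (2839 to 6455 bp), where 32.3% of all genes had a summit and 1 of 3 did. The share of glial genes with a summit was therefore near that of all genes in the same length class. The longest class runs up to 1965857 bp, whereas the 7 glial genes in it were 6757 to 19420 bp long. Within that class, length was not matched.

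**Figure D1:**
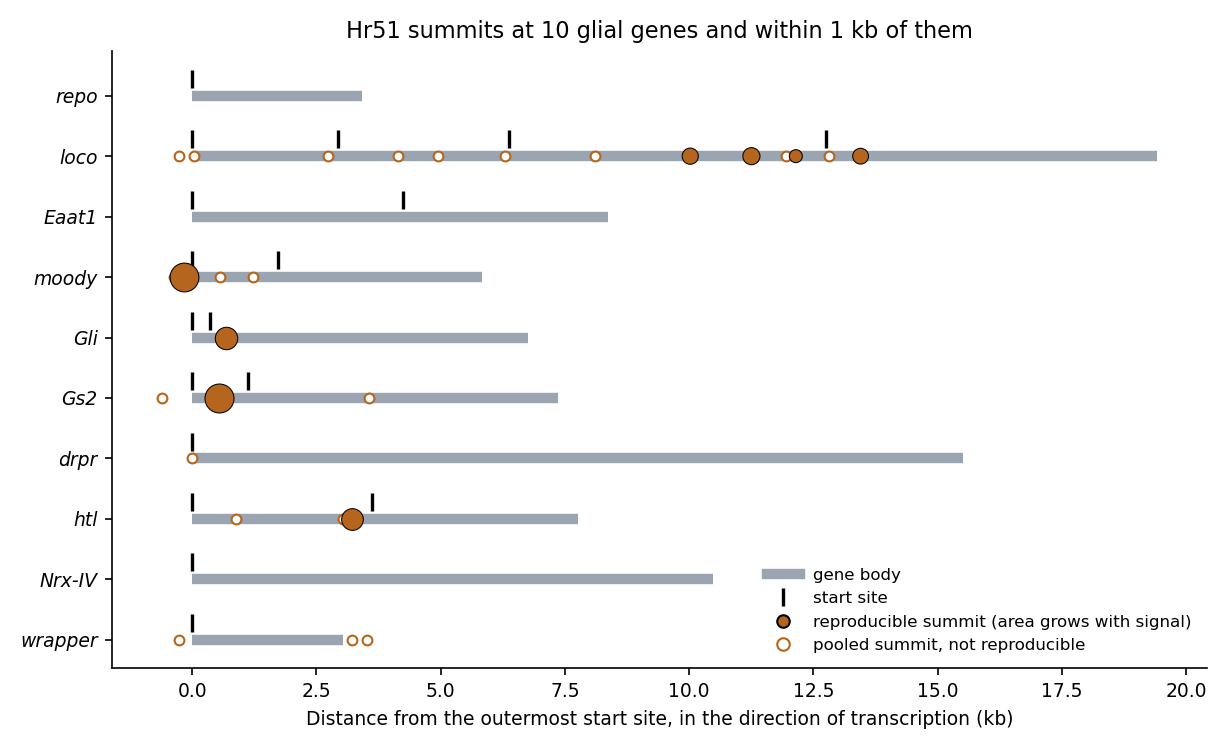
Each row is 1 gene, drawn to scale in kb from its outermost start site in the direction of transcription. Filled circles are the 8 reproducible summits, with an area that grows with signal, open circles are pooled summits outside the reproducible list, and black ticks are annotated start sites. The strong summits of moody, Gli and Gs2 sit near the left end, that of htl beside the inner start site, and repo, Eaat1 and Nrx-IV are empty.

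The genes with a summit all had more than 1 annotated start site, although Eaat1 has 2 and had no summit. Of the 6 genes with 2 or more start sites, 5 had a reproducible summit, and of the 4 with 1 start site 0 did. Among all protein-coding genes the shares were 50.4% with 2 or more start sites and 23.2% with 1, and in the longest class they were 68.0% and 49.8%, so the same direction holds across the genome. This split was chosen after the positions had been seen.

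The metabolic genes of glutamate handling differed from each other. Gs2 encodes a glutamine synthetase, which turns glutamate into glutamine, and had the strongest reproducible peak of the 10 genes, although that of moody was stronger in replicate 1. Its signal was 486 in replicate 1, where it ranked 505, and 584 in replicate 3, where it ranked 575. In the reproducible list it had a signal of 1070.2 and rank 547 of 7229. The summit lay at 11423367 on X (peak 11423164 to 11423576), in the first intron of the 2 transcripts that begin at the outer start site. It was 535 bp downstream of that start site and 590 bp upstream of the inner one, from which the other 4 transcripts begin. No start site of another gene was closer than 5945 bp. The replicate summits were 16 bp apart.

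Eaat1, which encodes the glial transporter that takes up glutamate, had no summit inside it or in the 5 kb on either side in any of the 4 lists. The nearest summit was 11847 bp away in replicate 1, 13458 bp in replicate 3 and 11789 bp in the pooled list, all weak, with ranks of 15490, 25171 and 21543. The nearest reproducible summit was 45540 bp from the gene, near the start site of Aldh, a distance that 5.13% of all protein-coding genes reach or exceed. For the pooled list, 33.7% of all genes lacked a summit over the same span, and 15.2% were at least as far from one as Eaat1. Eaat1 was also the only one of the 6 genes with several start sites that had no reproducible summit.

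Among the genes of the blood-brain barrier and its junctions, moody and Gli had strong peaks and Nrx-IV had none. The receptor encoded by moody is coupled to G proteins and is needed in the surface glia that insulate the nervous system. Its peak had a signal of 525 in replicate 1 (rank 432), 561 in replicate 3 (rank 614) and 1057 in the reproducible list (rank 564). The summit at 2050275 on X (peak 2050094 to 2050489) was 155 bp upstream of the outer start site and 1880 bp upstream of the inner one. This place also lies in an intron of CG4313, a gene on the other strand whose own start site is 2409 bp away, so position alone does not assign the peak to 1 gene.

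The next reproducible summits beside moody fell outside the limit of 1 kb, at 1797 and 2784 bp from the gene. They had signals of 189 and 277 and lay 184 and 196 bp upstream of start sites of Actn and usp, beyond its 3' end. The gene usp encodes a nuclear receptor, the partner of the ecdysone receptor. Within the limit, moody had 3 weaker pooled summits outside the reproducible list, with signals from 27.6 to 89.2.

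Gliotactin, the product of Gli, sits where 3 cells of an epithelium or of the glial sheath meet. The peak at Gli had a signal of 257 in replicate 1 (rank 1462), 356 in replicate 3 (rank 1291) and 605 in the reproducible list (rank 1327). Its summit at 15762079 on 2L (peak 15761898 to 15762257) was in an intron in every annotated transcript, 679 bp downstream of the start site of 4 transcripts and 329 bp downstream of that of the other 1. The replicate summits were 2 bp apart. Replicate 1 split the peak, with a second summit of signal 83.7 on the side toward the start sites, and the pooled list held no other peak at Gli.

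Nrx-IV encodes a neurexin of septate junctions that also binds the wrapper protein where midline glia enclose axons. No list had a summit within 5 kb of the gene. The nearest was 6058 bp away in replicate 1 (rank 4672), 6968 bp in replicate 3 (rank 2756) and 6947 bp in the reproducible list, in an intron of RhoGAP68F (signal 327, rank 2924). Of all protein-coding genes, 42.9% lay at least as far from a reproducible summit, so that distance is common.

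The FGF receptor gene htl had 1 reproducible peak, away from its outer start. Heartless, its product, guides glial growth and wrapping as well as mesoderm spreading. The signal was 274 in replicate 1 (rank 1322), 283 in replicate 3 (rank 1750) and 561 in the reproducible list (rank 1488). The summit at 18049759 on 3R (peak 18049578 to 18049949) lay in the first intron of the longest transcript. It was 3225 bp downstream of the outer start site and 393 bp upstream of the inner one, which 2 of the 3 transcripts use. The replicate summits were 2 bp apart, and no start site of another gene was within 26052 bp of the summit other than those of htl. A second pooled summit at 18049958, with a signal of 129 and rank 7568, just missed the reproducible list, whose lowest signal was 135. It was stronger in replicate 1 (90.0, rank 5683) than in replicate 3 (16.2, rank 29010).

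The gene loco, which encodes a regulator of G protein signalling needed for the glial sheath, held a row of 4 weaker peaks around an inner start site. Counted along the direction of transcription, their summits were at 22629364, 22628133, 22627239 and 22625936 on 3R, with gaps of 1231, 894 and 1303 bp. Summit 1 had a signal of 138 in replicate 1, 139 in replicate 3 and 274 in the reproducible list. Summit 2 had 139 in replicate 1, 184 in replicate 3 and 316 in the reproducible list. These 2 ranked 3362 and 3343 of 30000 in replicate 1 and 4004 and 2974 of 30000 in replicate 3. In the reproducible list their ranks were 3569 and 3058 of 7229.

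Summit 3 was the weakest of the 8, with a signal of 48.3 in replicate 1 (rank 11213), 81.6 in replicate 3 (rank 6780) and 143 in the reproducible list (rank 6878). It was thus the summit just inside the threshold of the list, and the one whose replicate ranks stood furthest apart. Summit 4 had a signal of 109 in replicate 1 (rank 4528), 154 in replicate 3 (rank 3613) and 255 in the reproducible list (rank 3827). Of the 4 annotated start sites of loco, the 1 at 22626634, used by 2 of its 5 transcripts, lay among these summits. Summits 1 to 3 were 2730, 1499 and 605 bp upstream of it and summit 4 was 698 bp downstream. The outermost start site was 10023 to 13451 bp away. There are also 2 noncoding genes on the other strand: lncRNA:CR43475 starts 664 bp from summit 2 and asRNA:CR43474 starts 211 bp from summit 1. The same gene held 9 further pooled summits outside the reproducible list, with signals from 34.6 to 90.5. Of 4239 protein-coding genes with a reproducible summit, 10.7% had 4 or more and 62.6% had 1.

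**Figure D2:**
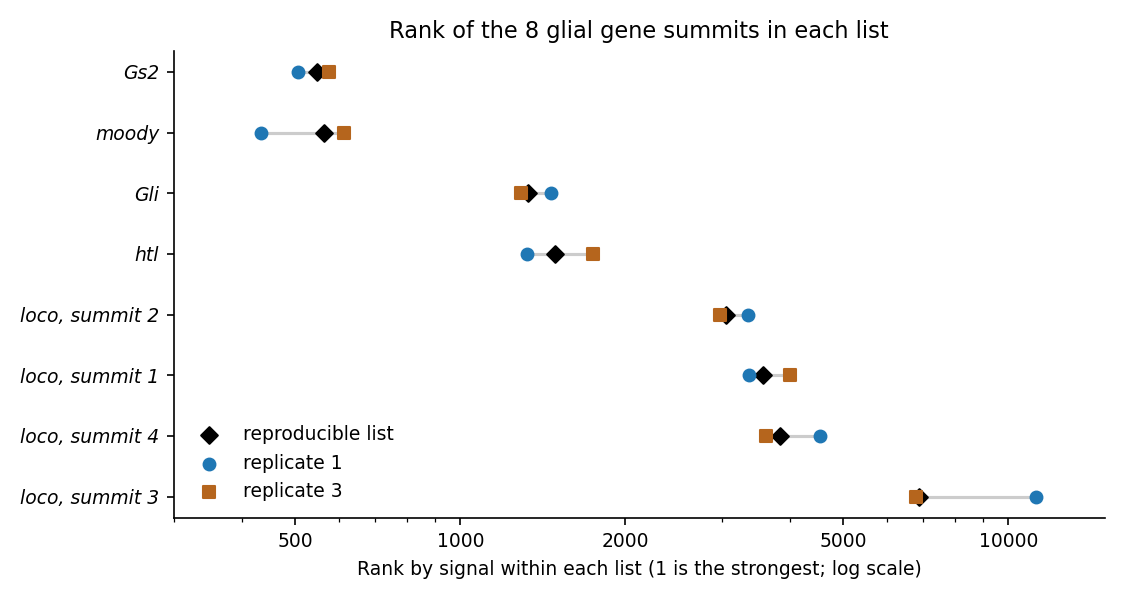
For each of the 8 summits the plot gives the rank by signal in the reproducible list (diamond), replicate 1 (circle) and replicate 3 (square) on a log scale, strongest at the top. Gs2 and moody change places between the replicates, as do Gli and htl, and summit 3 of loco, at rank 11213 in replicate 1 and 6780 in replicate 3, shows the widest gap.

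The replicates placed the 8 summits about as close together as reproducible summits in general. Each of the 8 overlapped a peak in both replicates, as did 97.3% of all reproducible summits, and the list was made from these replicates, so a high share is built in. The replicate summits were 2 to 56 bp apart, with a median of 20.5 bp, against 25 bp for all reproducible summits. Gs2 and moody were the strongest of the 5 genes in both replicates, though in opposite order, with moody ahead in replicate 1 and Gs2 ahead in replicate 3. Gli and htl also changed places, whereas every summit of loco was weaker than these 4 in both replicates. The median of the strongest signal was 605 over the 5 genes and 423 over all protein-coding genes with a summit. The latter were not matched to the 5 genes, which all have several start sites and of which 4 are in the longest length class.

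**Figure D3:**
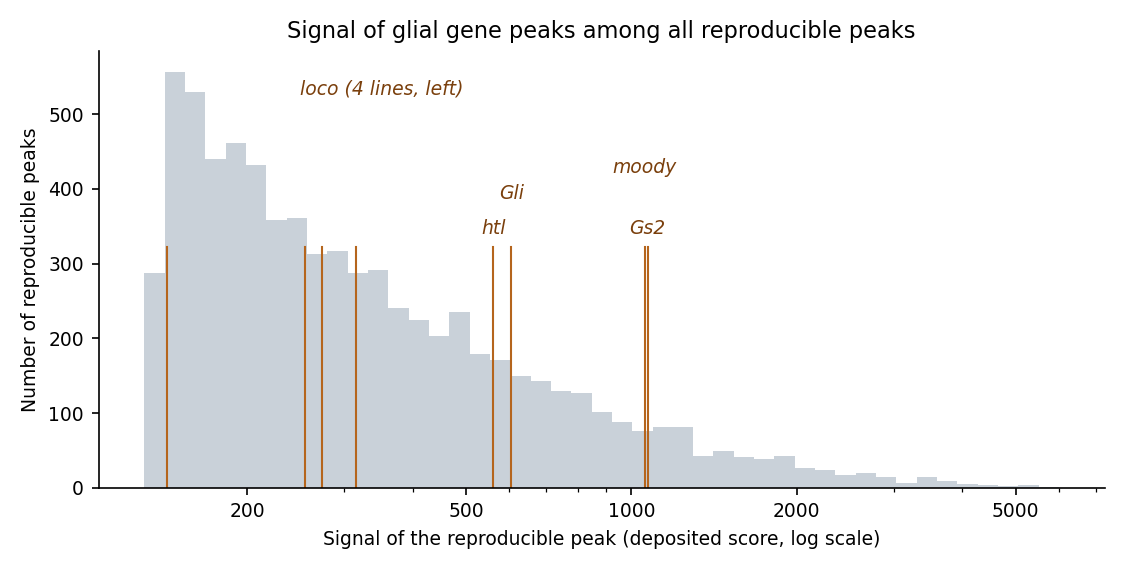
The histogram shows the signal of all 7229 reproducible peaks on a log scale, and each vertical line is a peak at a glial gene. The peaks of Gs2 (1070.2) and moody (1057) lie in the upper tail and the 4 of loco (143 to 316) lie on both sides of the median of the list, 270.1.

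By position, all 8 summits lay in introns, although that of moody lay outside moody, in an intron of CG4313. Introns held 54.9% of all reproducible summits and annotated exons 9.79%. Own start sites of the gene were within 1 kb of 6 of the 8 summits, and any gene's start site within 1 kb of all 8, which holds for 46.5% of all reproducible summits. Since a summit outside a gene counted only within 1 kb of it, the intronic share and nearness to a start are in part built in. The strongest summit was within 1 kb of an own start site in 4 of the 5 genes and in 67.2% of all bound genes with 2 or more start sites. Relative to the nearest own start site, 4 of the 6 near summits were not at the outermost one: those of htl and the 2 of loco were nearest to an inner start site, as was that of Gli.

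The genes for the glial fate factor, the engulfment receptor and the midline glial surface protein had no reproducible summit, but they differed in weak peaks. The homeodomain factor repo marks nearly all lateral glia. All 4 lists were empty across repo and the 1 kb on either side. The closest was 3215 bp away in replicate 1 (rank 13144) and 4185 bp in replicate 3 (rank 8837). The nearest reproducible one, 4167 bp beyond the end of repo, lay in an intron of 14-3-3epsilon with a signal of 155. Of all protein-coding genes, 53.3% lay at least as far from a reproducible summit, so that distance is common.

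Draper, the product of drpr, is the receptor by which glia engulf debris. A weak peak lay at its only start site, with the summit 5 bp downstream of the start in replicate 1 (signal 63.6, rank 8353) and 37 bp upstream in replicate 3 (signal 25.4, rank 19283). In the pooled list its signal was 100.1 and its rank 9538, outside the 7229 reproducible peaks. The gene Oseg4 overlaps this start site. Replicate 3 had 1 further summit in drpr, at rank 29108.

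The gene wrapper encodes an immunoglobulin-domain protein of midline glia. Its 3 pooled summits were all outside the gene and outside the reproducible list, although each replicate also had 3 summits within 1 kb of the gene. The pooled summit upstream, 269 bp before the start site, had a signal of 43.3 in replicate 1, 37.04 in replicate 3 and 75.01 in the pooled list (rank 12480). Those past the gene's end had pooled signals of 100.2 and 94.7, the latter beside the start of CG13506. The nearest reproducible summit, 1868 bp beyond the end and thus outside the limit of 1 kb, had a signal of 387 and lay in an intron of CG13506. At least that distance from a reproducible summit was found for 64.2% of all protein-coding genes. With weak peaks counted, 7 of the 10 genes had a pooled summit, against 44.9% of all protein-coding genes.

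Genes from lists on glia and on the pathways of these 10 genes carried summits as well. Whether the listed genes act in glia of these embryos was not measured. Of 58 further genes in 8 lists, 38 had a reproducible summit (65.5%), 36 by replicate 1 alone and 37 by replicate 3 alone, beside 30.4% of all protein-coding genes. Many are long: 36 of the 58 were in that longest class, within which length was not matched. There 30 of 36 had a summit, against 59.8% of all genes in the class. Of the 22 shorter ones 8 had a summit, against 23.0%. No test of these lists was made.

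Of the FGF pathway genes 5 of 6 had a summit, and the exception was btl, the other FGF receptor gene. All 6 are in the longest length class, where 59.8% of all genes had one. By replicate 3 alone the count was 4, and the peak at csw matched none in replicate 3. The strongest were at ths, a ligand of htl (signal 294 in replicate 1, 549.8 in replicate 3 and 818 in the reproducible list), and at bnl, the ligand of btl (329, 332 and 664 in the same order). Of the G protein genes 3 of 5 had a summit. By length, 3 of 3 in the longest class and 0 of 2 shorter ones, Gbeta13F and Ggamma1, had one, against 59.8% and 23.0% of all such genes. The strongest were at Pka-C1, the catalytic subunit of protein kinase A (147, 289 and 541), and at Galphai, a G protein alpha subunit (218, 277 and 494).

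Among septate junction genes 10 of 16 had a summit. These were 8 of 9 in the longest class and 2 of 7 shorter ones, against 59.8% and 23.0% of all such genes. They were led by Atpalpha, the catalytic subunit of the sodium pump, with 7 summits and a highest signal of 548 in replicate 1, 516 in replicate 3 and 1041 in the reproducible list. Mcr, another junction component, had 1 summit (329, 331 and 669). Engulfment genes had summits in 5 of 8 cases, with mbc, an activator of the GTPase Rac1, at 276, 425 and 686, and ced-6, an adaptor of Draper, at 408, 282 and 678. Both thus had summits while drpr had only a weak peak. By length, 2 of 3 engulfment genes in the longest class and 3 of 5 shorter ones had a summit, again against 59.8% and 23.0%.

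All 7 midline glia genes had a summit, 6 of them in the longest class, where 59.8% of all genes had one. The EGF receptor ligand gene spi had signals of 633 in replicate 1, 1046 in replicate 3 and 1686 in the reproducible list. The inhibitor gene aos had 643, 907 and 1531, at a summit that also lies within CG33158. The glutamate and GABA list had summits in 4 of 5 genes, led by gb, which encodes a glial amino acid exchanger (311, 545 and 858), and Gdh, for glutamate dehydrogenase (99.3, 152 and 247). Gat, a GABA transporter gene, had none. In this list 2 of 2 genes in the longest class and 2 of 3 shorter ones had a summit, against 59.8% and 23.0% of all such genes.

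Of the fate genes 2 of 6 had a summit (33.3%), beside 30.4% of all genes. These were pnt, which acts downstream of receptor tyrosine kinases and held 10 summits, the strongest with 289 in replicate 1, 318 in replicate 3 and 615 in the reproducible list, and ttk, a zinc-finger repressor (249.8, 311 and 554). The genes gcm, gcm2, retn and pros had no reproducible summit. With the highest peaks of replicate 1 alone 2 of the 6 fate genes had one, and with those of replicate 3 alone 4 did. By length, 2 of 4 fate genes in the longest class and 0 of 2 shorter ones had a reproducible summit, against 59.8% and 23.0% of all such genes. Of 5 other glial genes 2 had a summit: ana, a protein secreted by glia (295, 247 and 539.5), and axo, whose peak of signal 151 matched a peak in replicate 3 (80.3) and none in replicate 1. Among these 5 genes, 2 of 3 in the longest class and 0 of 2 shorter ones had a summit, against 59.8% and 23.0% of all such genes.

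**Figure D4:**
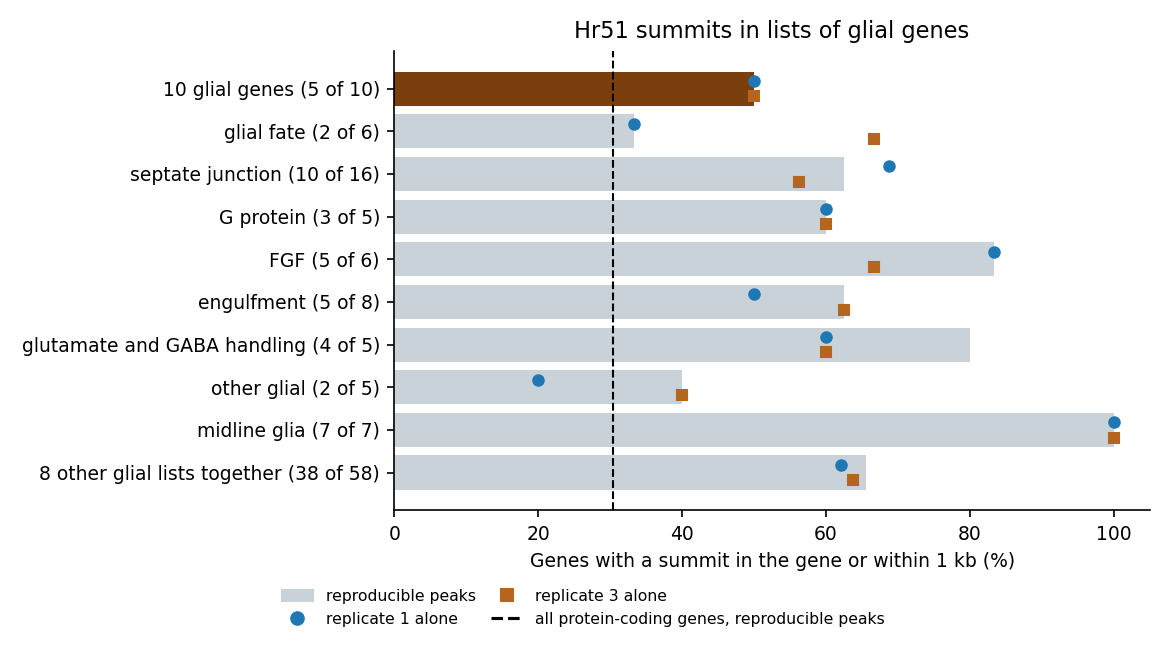
Bars give the percentage of genes in each list that had a reproducible summit under the same rule, with counts beside the names. Points give the same from the highest 7229 peaks of replicate 1 (circle) or replicate 3 (square), and the dashed line marks the 30.4% of all protein-coding genes. Midline glia genes reach 7 of 7 and the 10 glial genes 5 of 10.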

How the data were processed

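ChIP-seq peak lists on dm6 were used as deposited. Per the file headers and the deposited description files, peaks were called for each replicate and for the pooled reads against a control alignment, and an irreproducible discovery rate (IDR) procedure on these lists gave the 7229 reproducible peaks; the aligner, the caller and the thresholds are not given in the sources used here. Replicate and pooled lists each hold 30000 peaks. The deposited signal is a score per peak, and a further deposited column holds the −log10 of a q-value, which was not used. Deposited chromosome, start, end and summit columns give positions in bp, written here counting from 1. Read depth is unknown, so no interval is attached to a peak.

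Genes and start sites came from Ensembl release 115, and DNA from the RefSeq genome of the same chromosomes (Release 6). All peak and gene ends lay within the reference lengths. With Python 3.11.15 and pandas 2.3.3, summits were assigned to protein-coding genes with 1 kb on each side, and matched to each replicate by an overlap of at least 1 bp, taking the nearest summit. The code was tested on simulated data.

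Both samples formed 1 group, and no test was planned. All 10 glial genes were named, and in each other list the 2 genes of strongest signal. The 10 genes and the lists were chosen with earlier results of these data known, and the divisions by gene length and number of start sites after the data were seen. All 58 list genes matched, 2 through an older symbol (bark and ced-6).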

Additional observations from a re-analysis of the deposited data

How the results depend on the processing

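Depth is unknown, so weak peaks carry no counting error, and 2 replicates give only a pair of values. The count of glial genes with a reproducible summit, 5 of 10, was 4 with the gene body only (moody was lost), 6 with 2 kb on each side, 7 with 5 kb and 7 with all pooled peaks. The share of all genes moved with it, from 30.4% to 14.6%, 36.7%, 50.3% and 44.9% in that order. The count stayed at 5 with nearest start sites (26.6% of all genes), the stronger 3614 peaks (21.2%) and 1 summit per interval (30.4%). Replicate 1 alone (30.8%) and replicate 3 alone (32.5%) also gave 5. The 8 summits became 13 with 5 kb on each side and 28 with all pooled peaks; more ground or more peaks were counted by construction. The 38 of 58 other listed genes ranged from 27 with the stronger 3614 peaks to 45 with 5 kb on each side. The shares of all genes were 21.2% and 50.3% under these settings. The number of summits within 1 kb of an own start site, 6 of 8, was 3 at 500 bp. All 8 had a replicate summit within 100 bp in both replicates, and 7 overlapped one of the highest 7229 peaks of both, the exception being summit 3 of loco. AAGTCA was in 0 of 8 windows also with 25 or 100 bp on each side.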

Other observations

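Genes that mark neurons, the other main cell class of the embryonic nervous system, were counted under the same rule. Of 10 such genes, all in the longest of 5 length classes, 4 had a reproducible summit, beside 59.8% of all genes in that class. Replicate 1 alone gave 5 and replicate 3 alone gave 5. The 10 genes were 7405 to 225026 bp long and were not matched in length within the class. The strongest was at elav, an RNA-binding protein gene, with a signal of 1036 in replicate 1, 1337 in replicate 3 and 2347 in the reproducible list. ChAT, for the enzyme that makes acetylcholine, followed (410.3, 448 and 845 in the same order). Syt1, brp, Gad1, para, cac and Snap25 had no reproducible summit.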
